A study of Mus musculus with 4 samples.

Results

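Gamma-delta T cells of the wire-injured mouse carotid artery were examined in single-cell RNA-sequencing libraries taken 3, 7 and 14 days after injury. The cells were chosen by measured values, through their own transcripts. A barcode with at least 500 detected genes, at least 1000 unique molecular identifiers (UMIs, which count captured mRNA molecules) and at most 10% mitochondrial UMIs was taken when Cd3d, Cd3e and Cd3g together had at least 2 UMIs, Trdc and Cd163l1 together at least 1 UMI, and Cd4, Cd8b1, Csf1r and Cd68 no UMI. This rule gave 65 gamma-delta T barcodes, 4 at day 3, 46 at day 7 and 15 at day 14, out of 4094 barcodes of sufficient quality and 6161 barcodes in the whole series. Levels of the genes in the rule are therefore given as a description only, and no test was made on them.

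The study pooled the left carotid arteries of several male C57BL/6 mice for each time point after deep wire injury on a normal diet, left out thrombosed vessels, digested the tissue, removed dead cells and made 1 droplet library per time point. The labels give the tissue as carotid artery and the age before injury as 11 weeks. The groups were day 0, taken before injury, and days 3, 7 and 14 after injury, with no genotype or drug arm. As each time point is 1 library of pooled vessels, a difference between days cannot be told apart from a difference between libraries, no p-value is given, and all intervals are 95% intervals that cover counting error only.

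T cells recognise antigen through a receptor made of either alpha and beta chains or gamma and delta chains, both carried to the surface by the CD3 chains. Mouse gamma-delta T cells leave the thymus largely committed either to interleukin-17 production or to interferon-γ production and cytotoxicity, the latter under T-bet (Tbx21). Many of the former settle in barrier and connective tissues early in life, carry invariant receptors and respond to interleukin-1 and interleukin-23 without antigen. Cd163l1 encodes the scavenger receptor SCART1, which is known from interleukin-17-producing gamma-delta T cells.

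The receptor segments on which the results below turn are shown first, as the constant genes resemble each other. Trdv4 and Tcrg-V6 were unevenly spread over the groups of cells described below. The deposited names Tcrg-C1, Tcrg-C2, Tcrg-C4 and Tcrg-V6 were matched by Ensembl identifier to GENCODE mouse transcripts named Trgc1, Trgc2, Trgc4 and Trgv6 on chromosome 13, and Trdv4 to Trdv4 on chromosome 14. The first 90 bases of the first coding exon of the gamma constant genes are given 5′ to 3′, with capitals where a base differs from Tcrg-C1.
Tcrg-C1: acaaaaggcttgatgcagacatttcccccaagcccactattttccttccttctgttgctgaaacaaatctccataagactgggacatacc
Tcrg-C2: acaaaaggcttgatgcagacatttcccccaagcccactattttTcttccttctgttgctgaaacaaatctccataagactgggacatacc
Tcrg-C4: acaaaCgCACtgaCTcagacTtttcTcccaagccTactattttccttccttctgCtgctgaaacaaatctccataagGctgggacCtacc
Over the 330 bases of that exon Tcrg-C2 was identical to Tcrg-C1 at 97.3% and Tcrg-C4 at 82.1% of positions. Over whole transcripts, only 7 of 817 read-length windows of 98 bases in Tcrg-C2, and 0 of 888 in Tcrg-C4, occurred unchanged in Tcrg-C1. Counts of Tcrg-C1 and Tcrg-C2 are uncertain to the extent that reads fell in those shared stretches.

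The first 150 bases of the variable coding exon are given for the delta segment Trdv4 and the gamma segment Tcrg-V6, which were seen in the same barcodes below. No part is in capitals, as these are segments of different chains.
Trdv4: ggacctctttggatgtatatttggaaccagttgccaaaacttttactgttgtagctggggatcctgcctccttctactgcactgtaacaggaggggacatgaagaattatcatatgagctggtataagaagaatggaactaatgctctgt
Tcrg-V6: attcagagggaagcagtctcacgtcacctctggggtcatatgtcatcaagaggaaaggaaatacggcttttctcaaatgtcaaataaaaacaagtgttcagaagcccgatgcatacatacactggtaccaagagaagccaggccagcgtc

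Gamma-delta T barcodes were rare at day 3 and more frequent at days 7 and 14. They made up 4 of 1196 quality-filtered barcodes at day 3 (0.334%, exact Clopper-Pearson interval 0.0912 to 0.854), 46 of 2018 at day 7 (2.28%, 1.67 to 3.03) and 15 of 880 at day 14 (1.70%, 0.957 to 2.80). The share at day 7 was 6.82 times that at day 3 (2.49 to 26.1), and that at day 14 was 5.10 times (1.62 to 21.1). Days 7 and 14 overlapped within counting error, with a ratio of day 14 to day 7 of 0.748 (0.388 to 1.36). Before injury, 3 of 249 barcodes passed the same rule (1.20%, 0.249 to 3.48), an interval that overlapped those of all later days. In a tissue suspension, a larger share cannot be told apart from a smaller yield of the other cell types.

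Among CD3 barcodes, meaning all quality-filtered barcodes with at least 2 UMIs of Cd3d, Cd3e and Cd3g, the gamma-delta share differed less between days. It was 7.14% at day 3 (4 of 56, 1.98 to 17.3), 14.3% at day 7 (46 of 321, 10.7 to 18.6) and 20% at day 14 (15 of 75, 11.6 to 30.8), against 15% before injury (3 of 20, 3.21 to 37.9). These 4 intervals overlapped, and the ratio of day 7 to day 3 was 2.01 (0.733 to 7.67). Over the 3 injured libraries, 65 of 452 CD3 barcodes, 14.4%, were gamma-delta T barcodes.

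**Figure D1:**
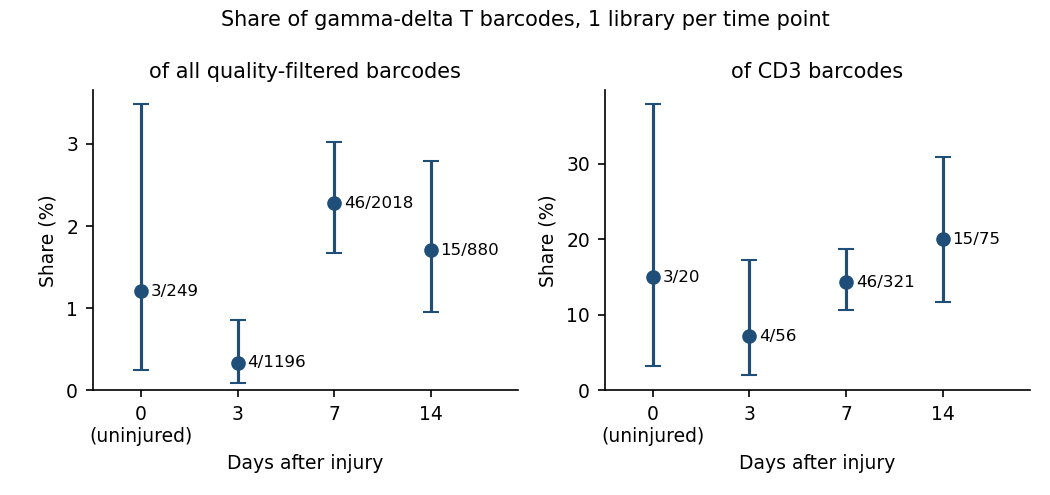
Share of gamma-delta T barcodes among all quality-filtered barcodes (left) and among CD3 barcodes (right), in percent, by days after injury, with exact 95% binomial intervals as bars and the numbers of barcodes beside each point. The day 3 library had the lowest share in both panels (0.334% and 7.14%), whereas only in the left panel did the intervals of days 3 and 7 not overlap.

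The marker genes of the rule were also read in cells that should lack them, with CD4 T and CD8 T barcodes here taken by Cd4 or Cd8b1 whatever their Trdc and Cd163l1. Trdc, the constant segment of the delta chain, was detected in 0 of 113 CD4 T barcodes of the injured libraries, which allows a share of up to 2.65% (3 counts of the total), in 2 of 76 CD8 T barcodes (2.63%), 11 of 1679 macrophage barcodes (0.655%), 5 of 886 vessel wall barcodes (0.564%) and 0 of 208 neutrophil barcodes (limit 1.44%). At day 7 the macrophage barcodes had a median of 11574 UMIs, the wall barcodes of 16279, the CD4 T barcodes of 5616 and the neutrophil barcodes of 3206, against 6759.5 in gamma-delta T barcodes. Natural killer (NK) barcodes, defined by Ncr1 without CD3, held Trdc in 53 of 180 (29.4%), but their summed level at day 7 was 80.3 CPM, meaning UMIs scaled to a common library total, against 2225 in gamma-delta T barcodes. Cd163l1 was found in 0 of 113 CD4 T, 1 of 76 CD8 T and 1 of 180 NK barcodes. In gamma-delta T barcodes Trdc stood at 1926, 2225 and 2734 CPM and Cd163l1 at 1476, 863 and 1165 CPM at days 3, 7 and 14, and Cd3e at day 7 was level with that of CD4 T barcodes (464 and 468 CPM). These levels of Trdc and Cd163l1 follow from the rule, and the boundary to NK cells rests on CD3.

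Of 75 CD3 barcodes with Trdc or Cd163l1, 1 was left out for Cd4, 4 for Cd8b1 and 7 for Csf1r or Cd68, some for more than 1 of these. The 1 barcode with Cd4 was not among the 113 CD4 T barcodes above, none of which held Trdc or Cd163l1. Of the 65 kept, 41 had both markers, 22 Trdc only and 2 Cd163l1 only. At the edge of the rule lay 3 barcodes of day 7 with 1 UMI of the markers, in which Tcrg-C1 stood at 290 CPM and Trac at 363 CPM, against 708 and 67.9 CPM in the other 43. Just outside it, the 101 day 7 barcodes with CD3 but no Trdc, Cd163l1, Cd4 or Cd8b1 had Tcrg-C1 at 30.8 CPM in 12 barcodes and Trac at 501 CPM in 89. The 2 barcodes of day 7 inside the rule with 2 CD3 UMIs and the 2 just outside it with 1 CD3 UMI held the NK gene Ncr1 in 1 barcode each, at 2221 and 673 CPM over the pair. Of all 65, 18 had a UMI of Trac, 13 of Ncr1 or Klrb1c and 3 of Cd8a.

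Median depth was 3912.5 UMIs at day 3, 6759.5 at day 7 (1216 to 29586) and 5639 at day 14 (1306 to 24833), and 32 of the 65 had over 5% mitochondrial UMIs. The 4 libraries held 333, 1689, 3001 and 1138 barcodes with 2672722 to 27973418 UMIs. Of all barcode sequences, 217 occurred in at least 2 libraries, and none of these was a gamma-delta T barcode. Removing the highest doublet scores removed none of the 65. Transcripts of other cells were also found in the gamma-delta T barcodes. Their 15 macrophage, neutrophil and dendritic cell genes summed to 193, 179 and 30.4 CPM at days 3, 7 and 14, with 12, 2 and 13 genes at 0. The 13 fibroblast, smooth muscle and endothelial genes summed to 770, 1170 and 942 CPM, with 7, 1 and 6 at 0, and the 6 B cell genes to 128, 111 and 50.6 CPM, with 4 at 0 at each day. At day 7 the wall genes summed to 1122 CPM in CD4 T barcodes, close to the gamma-delta value, and the part of these transcripts in the results was not tested.

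The gamma-delta T barcodes carried the gamma chain as well as the delta chain. Tcrg-C1, a gamma constant gene that the rule did not use, stood at 963, 690 and 810 CPM at days 3, 7 and 14 and was detected in 4 of 4, 34 of 46 and 12 of 15 barcodes. At day 7 its level was 78.2 times that of CD4 T barcodes (33.0 to 243), 33.4 times that of CD8 T (15.1 to 92.1) and 258 times that of NK (70.6 to 2143). Tcrg-C2 stood at 195 CPM in 22 of 46 barcodes at day 7 and Tcrg-C4 at 133 CPM in 21. Both were above the CD4 T barcodes, 110.5-fold for Tcrg-C2, where CD4 T held 1 UMI, and at least 25.1-fold for Tcrg-C4, where CD4 T held none.

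Of the variable segments, the delta segment Trdv4 was the most often seen. It had 321, 319 and 476 CPM at days 3, 7 and 14, in 2 of 4, 24 of 46 and 11 of 15 barcodes, and no UMI in the CD4 T and CD8 T barcodes of day 7, so that it was at least 60.2-fold and at least 30.9-fold higher there. After each barcode was thinned to 1000 UMIs, Trdv4 was left in 23.9% at day 7 and 46.7% at day 14. NK barcodes of day 7 also held it, at 32.1 CPM in 13 of 109 barcodes, and the gamma-delta level was 9.93 times that (6.32 to 16.2). Trdv4 and Tcrg-V6 are known as the chains of an invariant receptor of interleukin-17-producing gamma-delta T cells. The gamma segment Tcrg-V6 was found in 13 of the 65 barcodes, 12 of which also had Trdv4. Trgv2 was found in 18, of which 14 also had Tcrg-C2. Tcrg-V4 was found in 6. At least 1 variable segment was seen in 54 of 65 (83.1%).

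The alpha chain constant gene Trac was low. It stood at 80.5 CPM at day 7, in 13 of 46 barcodes, against 836 CPM in CD4 T and 743 CPM in CD8 T barcodes, 10.4-fold (7.01 to 16.1) and 9.23-fold lower. The beta constant genes were not low to the same degree. Trbc1 was found in 28 of 46 barcodes at 486 CPM and Trbc2 in 40 of 46 at 743 CPM, the latter 2.00-fold below CD4 T barcodes. Gamma-delta T barcodes thus differed from the other T cells in the alpha constant gene and much less in the beta constant genes.

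To describe the programmes of these cells, lists of genes were compared at day 7, the only day with at least 20 gamma-delta T barcodes, against 85 CD4 T, 35 CD8 T and 109 NK barcodes of the same library (median 5616, 5936 and 6347 UMIs). In these comparisons CD4 T and CD8 T barcodes had Cd4 or Cd8b1 but not the other, and neither Trdc nor Cd163l1. UMIs were summed per population and scaled to CPM, and a gene was counted as higher or lower at a ratio of at least 2 or at most 0.5 after 20 CPM was added to both sides. Of 8253 genes compared with CD4 T barcodes, 196 (2.37%) were higher and 177 (2.14%) lower. Of 7857 compared with CD8 T barcodes, 417 (5.31%) were higher and 244 (3.11%) lower. Of 9324 compared with NK barcodes, 227 (2.43%) were higher and 231 (2.48%) lower.

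Genes of the type 17 programme, which drives interleukin-17 production, were mostly higher in gamma-delta T barcodes than in each of the 3 populations. Of its 21 genes compared with CD4 T barcodes, 13 were higher and none lower. Of 19 compared with CD8 T, all 19 were higher, and of 19 compared with NK, 17 were higher and none lower. The median log2 ratio of the list was 1.69, 2.46 and 2.32 for CD4 T, CD8 T and NK, against -0.0025, 0.094 and -0.049 over all compared genes. The list medians kept their direction under every alternative tried.

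Il17a, the cytokine that recruits neutrophils and acts on stromal cells, had 0 UMIs in the 4 barcodes of day 3, 175 UMIs in 10 of 46 barcodes at day 7 and 4 UMIs in 2 of 15 barcodes at day 14. At day 7 this was 542 CPM (464 to 628), against 3 UMIs in 1 of 85 CD4 T barcodes (a ratio of 102, 34.4 to 501) and none in CD8 T and NK barcodes (at least 52.5-fold and at least 135-fold higher). A few barcodes supplied most of it, with a median of 12.5 UMIs in positive barcodes and 50 in the highest, without which the level was 396 CPM. The related cytokine genes were nearly absent, with 2 UMIs of Il17f and 2 of Il22 at day 7. The CD4 T barcodes held 18 UMIs of Il22, all from 1 barcode.

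A kinase and transcription factors of the programme were spread over more of the cells. Blk, a Src-family kinase of gamma-delta T cells with interleukin-17 potential, stood at 706, 294 and 294 CPM at days 3, 7 and 14, in 3 of 4, 24 of 46 and 10 of 15 barcodes, and had no UMI in the 3 comparison populations at day 7 (at least 55.5-fold, 28.5-fold and 73.3-fold higher). Sox13, which programmes this lineage in the thymus, was at 257, 52.6 and 111 CPM, at least 9.94-fold above CD4 T barcodes at day 7. Zbtb16, encoding the innate lymphocyte factor PLZF, was at 89.7 CPM at day 7, at least 17-fold above CD4 T barcodes.

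Among the factors shared with CD4 T cells, Maf and Rora did not differ from CD4 T barcodes at day 7 beyond counting error. Maf stood at 588 CPM, 1.13 times CD4 T (0.936 to 1.36), 12.2 times CD8 T and 4.68 times NK, and Rora at 303 CPM, 0.994 times CD4 T and 4.64 times CD8 T.

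The receptors through which such cells are activated were also high. Il23r, the receptor for interleukin-23, was at 193, 74.3 and 70.9 CPM at days 3, 7 and 14, and at day 7 was 42.1 times the CD4 T level (6.86 to 1731, from 1 CD4 T UMI). Il1r1, the interleukin-1 receptor, had no UMI at day 3 and stood at 83.6 and 172 CPM at days 7 and 14, with a day 7 ratio to CD4 T of 9.47 (3.60 to 31.5). Il7r, which carries the survival signal of interleukin-7, was detected in all barcodes of days 3 and 14 and in 41 of 46 at day 7, at 1669, 1570 and 1188 CPM respectively, and its day 7 level was 2.15 (1.85 to 2.51), 6.06 and 8.22 times that of CD4 T, CD8 T and NK. Il18r1 was at 334 CPM, 1.35 times CD4 T. Ccr6, a chemokine receptor of type 17 cells, was at 40.2 CPM and did not differ from CD4 T barcodes (ratio 0.844, 0.400 to 1.69).

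Further genes of the list with high ratios were Cxcr6, a chemokine receptor of tissue lymphocytes, the membrane proteins Tmem176a and Tmem176b, the leukotriene receptor gene Ltb4r1 and the interleukin-17 receptor subunit gene Il17re. Cxcr6 was at 1220, 1018 and 1144 CPM at days 3, 7 and 14 and at day 7 was 3.37 (2.80 to 4.08), 8.97 and 13.6 times the CD4 T, CD8 T and NK levels. Tmem176a and Tmem176b, at 600 and 535 CPM at day 7, were 4.15 and 5.42 times the CD4 T level. Ltb4r1 was at 170 CPM, 4.39 times CD4 T, and Il17re at 86.6 CPM, 6.14 times CD4 T. Outside the lists, the leading genes included Ramp1, a subunit of the receptor for the neuropeptide CGRP, at 300 CPM (4.05, 29.1 and 9.76 times CD4 T, CD8 T and NK), and Igf1r, the receptor for insulin-like growth factor 1, at 189 CPM (7.64, 54.9 and 17.6 times).

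**Figure D2:**
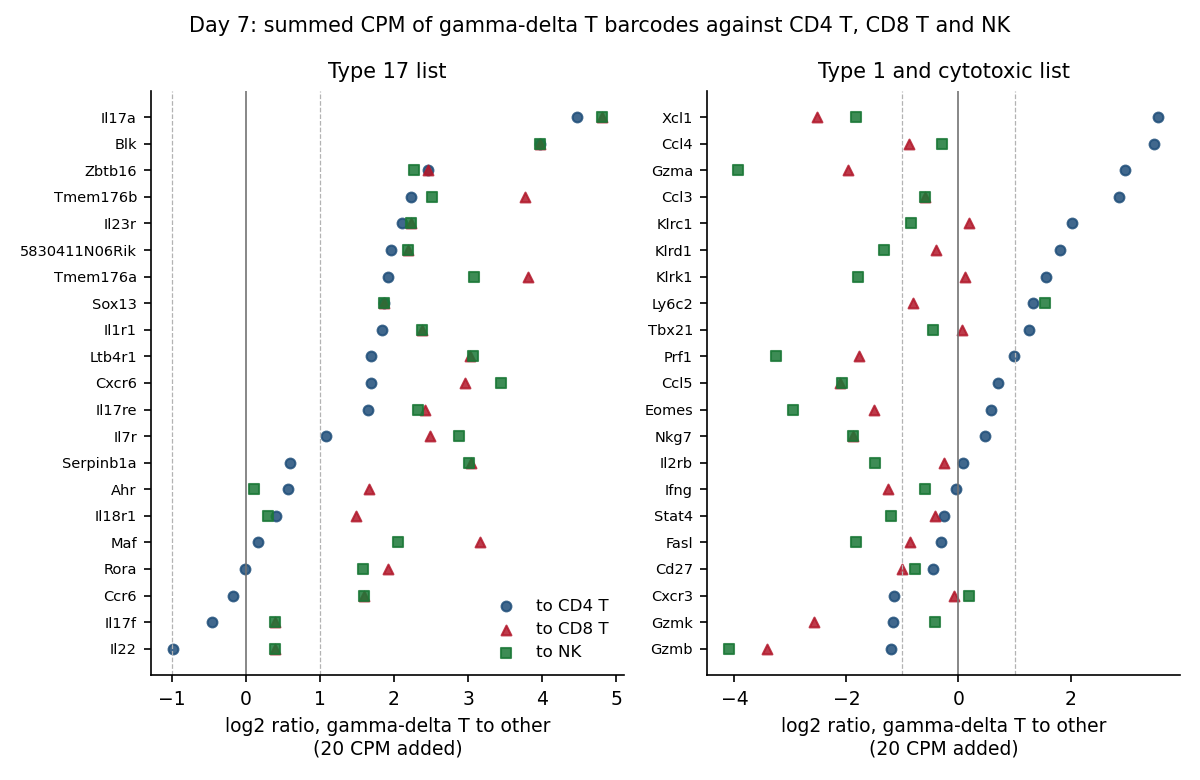
log2 ratio of the summed CPM of gamma-delta T barcodes at day 7 to that of CD4 T, CD8 T and NK barcodes, with 20 CPM added to both. Each gene of the type 17 list (left) and of the type 1 and cytotoxic list (right) is shown. A few points are of genes with under 10 UMIs over both populations, which were not among the compared genes. Dashed lines mark 2-fold. In the left panel nearly all points lie to the right of 0, whereas in the right panel most CD8 T and NK points lie to the left of it and the CD4 T points lie on both sides.

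The promoters of Il17a and Il23r were inspected for the half-site AGGTCA, or TGACCT on the other strand, that nuclear receptors bind, since both genes were high in these cells. The RefSeq windows of the GRCm38.p6 build run from 250 bases before to 50 bases after the gene start, with the motif in capitals, and lie at chr1:20730655-20730954 (plus strand) for Il17a and chr6:67491806-67492105 (minus strand) for Il23r.
Il17a: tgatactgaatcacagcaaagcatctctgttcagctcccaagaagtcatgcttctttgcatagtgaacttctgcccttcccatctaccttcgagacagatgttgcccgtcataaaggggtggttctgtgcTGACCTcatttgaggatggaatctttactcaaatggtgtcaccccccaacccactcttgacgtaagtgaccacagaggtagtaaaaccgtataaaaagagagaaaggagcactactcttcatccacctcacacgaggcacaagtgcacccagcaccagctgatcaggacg
Il23r: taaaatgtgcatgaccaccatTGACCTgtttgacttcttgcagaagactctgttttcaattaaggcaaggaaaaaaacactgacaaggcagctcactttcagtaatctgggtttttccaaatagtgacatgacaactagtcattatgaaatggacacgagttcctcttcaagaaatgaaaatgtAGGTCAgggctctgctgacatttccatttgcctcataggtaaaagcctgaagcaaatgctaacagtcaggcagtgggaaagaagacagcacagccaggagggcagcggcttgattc
The Il17a window held 1 match at -120 from the start and the Il23r window 2, at -229 and -66. Of the 16 type 17 genes with a promoter in the table, 5 held the motif in any of their windows (31.3%, Il17a, Il17f, Il23r, Ccr6 and 5830411N06Rik), against 3 of 17 type 1 genes (17.6%) and 4900 of 27025 genes overall (18.1%). A match describes the letters and is no evidence of binding.

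Genes of the type 1 and cytotoxic programme at day 7 lay between the levels of CD4 T barcodes and those of CD8 T and NK barcodes. Against CD4 T, 9 of 20 compared genes were higher and 3 lower, with a median log2 ratio of 0.85. Against CD8 T, none of 21 was higher and 10 were lower (median -0.89), and against NK, 1 of 20 was higher and 12 lower (median -1.41). The direction against CD4 T turned in 2 alternatives, with a median of -0.059 when barcodes with Ncr1 or Klrb1c were left out and -0.094 when the rule was applied after thinning. At day 14, with 15 gamma-delta T and 17 CD4 T barcodes, the median against CD4 T was -0.65. The direction against CD8 T and NK did not change in these cases, with medians of -1.35 and -2.15 at day 14.

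The type 1 transcripts in the gamma-delta T barcodes were mainly of chemokines and of NK receptors. Ccl5, which attracts T cells and monocytes, was at 2889, 1974 and 506 CPM at days 3, 7 and 14, in 1 of 4, 20 of 46 and 3 of 15 barcodes. The day 7 share, 43.5%, was 25.7% without barcodes with Ncr1 or Klrb1c and 28.1% when the rule was applied after thinning. Its level at day 7 was 4.34-fold below CD8 T (3.98 to 4.75) and 4.24-fold below NK. It was 1.64 times CD4 T (1.47 to 1.83), a direction that turned in 3 alternatives. Xcl1, which attracts cross-presenting dendritic cells, was at 384 CPM in 19 of 46 barcodes at day 7, 27.2 times CD4 T (13.4 to 64.4), 6.01-fold below CD8 T (4.95 to 7.33) and 3.69-fold below NK. The lectin receptor genes Klrd1, Klrk1 and Klrc1 were at 347, 257 and 214 CPM, 4.09, 3.47 and 5.76 times CD4 T. Ly6c2 was at 408 CPM, 2.72 times CD4 T and 3.21 times NK, and was the 1 gene of the list higher than in NK barcodes.

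Type 1 regulators and effectors did not exceed the CD8 T level beyond counting error. Tbx21 was at 86.6 CPM in 14 of 46 barcodes at day 7, 3.51 times CD4 T (1.79 to 7.21) and 1.05 times CD8 T (0.587 to 1.89), whereas Eomes had 4 UMIs. Ifng, the type 1 cytokine, was at 170 CPM in 10 of 46 barcodes, 0.965 times CD4 T (0.681 to 1.35), 2.55-fold below CD8 T (1.84 to 3.56) and 1.58-fold below NK (1.17 to 2.17). The granzyme gene Gzmb was at 18.6 CPM, 21.1-fold below CD8 T (9.41 to 58.8) and 34.4-fold below NK, and the perforin gene Prf1 at 34.0 CPM, 4.85-fold below CD8 T and 14.5-fold below NK. Gzmk had no UMI, at least 10.7-fold below CD8 T. Gzma, Ccl3 and Ccl4 were counted as higher than in CD4 T barcodes, but 82 of 84, 66 of 74 and 139 of 155 of their UMIs came from 1 barcode, without which they stood at 6.27, 25.1 and 50.2 CPM. That barcode held 1 UMI of Trdc and 2 of Cd3g, the lowest counts that the rule admits.

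NK genes at day 7 lay between their levels in CD4 T and NK barcodes, the latter having been defined by Ncr1. At day 14 they were not above CD4 T barcodes, with a median log2 ratio of 0. The 12 NK genes then summed to 81.0 CPM in gamma-delta T and 700 CPM in CD4 T barcodes, the latter from 62 UMIs in 17 barcodes. In CD4 T barcodes they summed to 75.9 CPM at day 7. The macrophage, neutrophil and dendritic cell genes of CD4 T barcodes summed to 109 CPM at day 7 and 1186 CPM at day 14, and their part was not tested. At day 3 the NK genes summed to 1990 CPM in the 4 gamma-delta T barcodes and 88.8 CPM in CD4 T barcodes. At day 7 all 11 compared NK genes were lower than in NK barcodes, with a median log2 ratio of -3.41. All 7 compared with CD4 T were higher. Ncr1 was left in 4 barcodes, 12.3-fold below NK (36.5-fold, 16.6 to 99.9, without the barcode just described, which held 12 of its 18 UMIs), and the adaptor gene Tyrobp at 95.9 CPM was 16.3-fold below. Bcl11b, the transcription factor that maintains T cell identity, was at 362 CPM, 0.996 times CD4 T (0.787 to 1.26) and 54.1 times NK.

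Activation and checkpoint receptors of CD4 T cells were low in gamma-delta T barcodes. Of 11 compared genes, 7 were lower than in CD4 T barcodes (Ctla4, Icos, Tnfrsf4, Tnfrsf18, Cd5, Cd28 and Btla) and 1, Cd160, was higher, with a median log2 ratio of -1.55. The costimulatory receptor gene Tnfrsf4, encoding OX40, had no UMI in the 46 barcodes, against 154 UMIs in 38 of 85 CD4 T barcodes, at least 29.3-fold lower. Ctla4 was 15.0-fold lower (4.95 to 74.4), Cd5, a brake on receptor signalling, 9.84-fold (4.85 to 23.2), Cd28 3.97-fold and Icos 3.20-fold. Foxp3, the regulatory T cell factor, had no UMI, at least 5.32-fold below the CD4 T barcodes with 28 UMIs. The inhibitory receptor gene Pdcd1 was at 161 CPM, level with CD4 T (ratio 1.01) and 20.1 times NK. Against CD8 T, none of 10 compared genes of the list was higher and 3 were lower.

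Tissue residence and homing genes were higher than in CD8 T barcodes for 7 of 12 compared genes and lower for none, with a median log2 ratio of 1.03. Against CD4 T, 4 were higher (Itgae, Itga1, Cxcr6 and Cxcr4) and 1, Itgb1, lower, and against NK, 3 were higher and 2 lower. Itgae, encoding the integrin CD103 that binds E-cadherin, was at 46.4 CPM in 8 of 46 barcodes, 4.39 times CD4 T and at least 4.50 times CD8 T. Itga1, the alpha chain of a collagen-binding integrin, was at 80.5 CPM in 14 of 46, 15.2 times CD4 T (4.66 to 78.5). Cd69, an activation and retention marker, was at 474 CPM, 1.55, 2.00 and 2.92 times CD4 T, CD8 T and NK.

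Among growth factor and other cytokine genes, 1 of 12 compared with CD4 T was higher and 4 lower. Against CD8 T, 3 of 12 were higher (Areg, Ltb and Furin) and none lower. Against NK, 2 of 12 were higher and 1 lower. The gene higher than in CD4 T barcodes was Csf2, with 7 UMIs in 6 barcodes against none. Areg, encoding the repair factor amphiregulin, was at 27.9 CPM in 2 of 46 barcodes. It was among the genes lower than in CD4 T barcodes, 3.10-fold (1.51 to 7.19). Ltb, encoding lymphotoxin beta, was detected in 43 of 46 barcodes at 1309 CPM, 1.48, 3.66 and 3.35 times CD4 T, CD8 T and NK. At day 7 gamma-delta T barcodes thus held little amphiregulin transcript and nearly all held lymphotoxin beta. Areg at day 14 had 8 UMIs, all in 1 of 15 barcodes.

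Within the gamma-delta T cells, core genes of the type 17 and type 1 programmes were mostly found in different barcodes. Each barcode was described by 2 sets of core genes, Il17a, Il17f, Il23r, Ccr6, Sox13 and Blk for type 17 and Tbx21, Eomes, Ifng, Cd27, Ccl5, Nkg7 and Klrd1 for type 1. Of the 65, 37 had UMIs of the type 17 core only (56.9%, 44.0 to 69.2), 24 of the type 1 core only (36.9%, 25.3 to 49.8), 4 of both and none of neither. Only 1 barcode had at least 2 UMIs of both cores. Il17a was detected in 12 barcodes and Ifng in 13, and in none together. Median depth at day 7 was 6834.5 UMIs in type 17 barcodes and 6847 in type 1 barcodes, so that median depth was close. The 4 barcodes with both cores, all of day 7, had a median of 4116.5 UMIs.

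The type 17 core was made of fewer transcripts than the type 1 core. At day 7 the type 17 barcodes held a median of 7 core UMIs (2 to 55) and the type 1 barcodes a median of 45.5 (1 to 121). After thinning to 1000 UMIs, 16 day 7 barcodes had the type 17 core only, 19 the type 1 core only, 1 both and 10 neither. The same cores read in the other lymphocytes of day 7 gave the type 17 core alone in 7 of 85 CD4 T, 0 of 35 CD8 T, 14 of 101 CD3 barcodes without Trdc, Cd163l1, Cd4 and Cd8b1, and 0 of 109 NK barcodes. The type 1 core alone was in 52, 35, 67 and 109 of these barcodes, respectively, and so in most other lymphocytes.

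**Figure D3:**
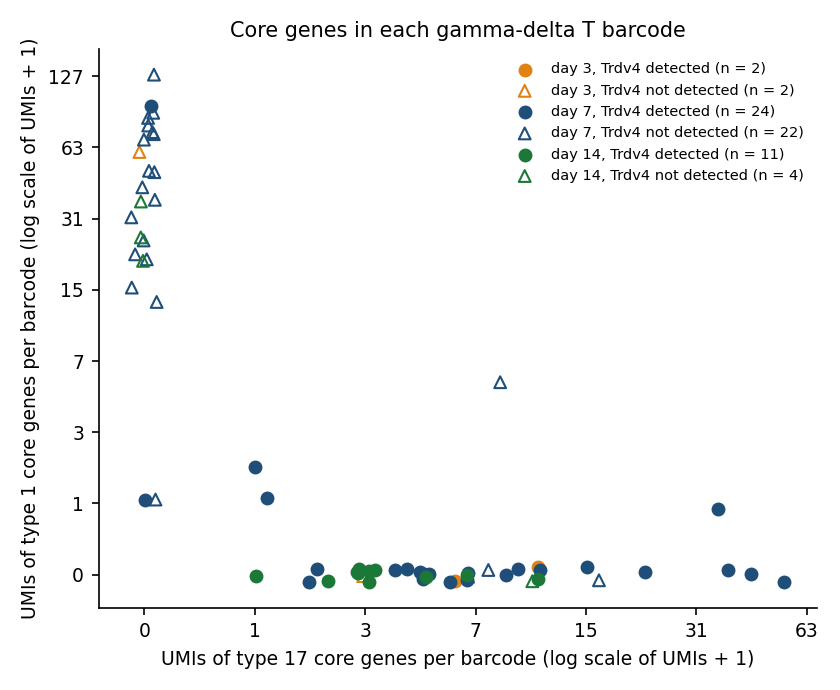
Each point is 1 gamma-delta T barcode of day 3, 7 or 14, placed by its UMIs of the type 17 core (horizontal) and of the type 1 core (vertical), both on a log scale of UMIs + 1 with a small shift to part overlapping points. Filled points have a UMI of Trdv4. The points lie along the axes, 37 along the horizontal and 24 along the vertical, with 4 away from both.

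The variable segments Trdv4 and Tcrg-V6 shown above followed this division, although they were in neither core. Over the 3 libraries, Trdv4 was detected in 32 of 37 type 17 barcodes (86.5%, 71.2 to 95.5) and in 2 of 24 type 1 barcodes (8.33%). Tcrg-V6 was found in 12 of the former and 0 of the latter. Cd163l1, which was part of the selection, was in 36 of 37 (97.3%) and 4 of 24 (16.7%). Tcrg-C1 was in 34 of 37 and 13 of 24, and at day 7 stood at 1232 CPM in type 17 and 181 CPM in type 1 barcodes. Trgv2 was found in 7 of 37 and 9 of 24, and Tcrg-V4 in 3 of each. Tcrg-C2 and Tcrg-C4 were in 17 and 20 of the type 17 barcodes and in 12 and 10 of the type 1 barcodes. Trac was in 10 of 37 and 7 of 24, and Trbc2 in 32 of 37 and 21 of 24, and for these genes and for Tcrg-C2 and Tcrg-C4 the intervals of the shares overlapped.

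**Figure D4:**
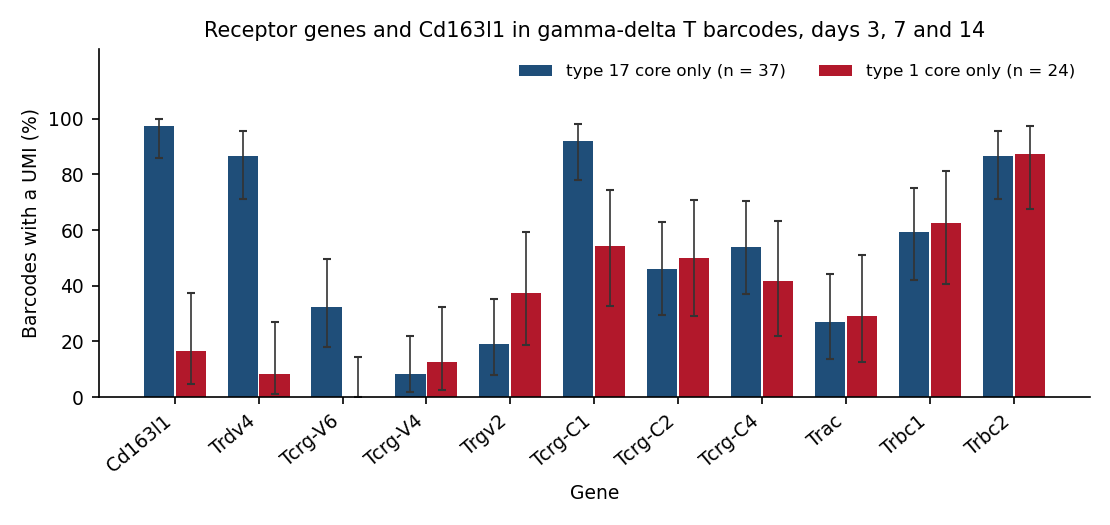
Percent of gamma-delta T barcodes of days 3, 7 and 14 with a UMI of Cd163l1 and of each receptor gene, for barcodes with the type 17 core only (37) and the type 1 core only (24), with exact 95% binomial intervals. Cd163l1 and Trdv4 stand high in the type 17 barcodes (97.3% and 86.5%) and low in the type 1 barcodes (16.7% and 8.33%), Tcrg-V6 is in 32.4% and 0, and the intervals of Tcrg-C2, Tcrg-C4, Trac, Trbc1 and Trbc2 overlap.

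Genes outside both cores that split in the same manner at day 7, among 22 type 17 and 20 type 1 barcodes, were chosen after their values were seen. Cxcr6 was in 22 and 8 of them (1848 and 148 CPM), Maf in 22 and 7 (971 and 110 CPM), Tmem176b in 22 and 6 and Il7r in 21 and 16 (1727 and 691 CPM). Ltb4r1, Serpinb1a and Il1r1 were in 15, 17 and 16 type 17 barcodes and in 1 type 1 barcode each, and Il17re and Zbtb16 in 15 and 11 type 17 barcodes and in no type 1 barcode. Pdcd1 was in 17 type 17 barcodes and 1 type 1 barcode. On the other side, Ly6c2 was in 18 type 1 barcodes (852 CPM) and no type 17 barcode, Xcl1 in 17 and 2 (788 and 13.4 CPM) and Klrc1 in 14 and 0. The 2 integrins divided as well, Itgae being in 7 type 17 and 0 type 1 barcodes and Itga1 in 1 and 13. Other genes of both lists were found on both sides but differed in level, Il2rb in 16 type 17 and 18 type 1 barcodes (201 and 413 CPM), Klrk1 in 11 and 14 (107 and 420 CPM), Stat4 in 8 and 13 (66.9 and 187 CPM) and Il18r1 in 21 and 12 (549 and 123 CPM). Ahr, in 6 and 5, had overlapping intervals (73.6 and 58.1 CPM). NK genes went with the type 1 side, with Klrb1c in 10 and Ncr1 in 4 of 20 barcodes and in none of the 22.

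With all UMIs, the share of type 17 barcodes was 47.8% at day 7 and 80% at day 14. The odds ratio was 4.26, and its exact conditional interval, 0.972 to 26.7, included 1. That interval covers counting error only, as each day is 1 library. The type 17 core alone was found in 3 of 4 barcodes at day 3, 22 of 46 at day 7 (interval 32.9% to 63.1%) and 12 of 15 at day 14 (51.9% to 95.7%), and the type 1 core alone in 1, 20 and 3 (25%, 43.5% and 20%, with an odds ratio of day 14 to day 7 of 0.331, 0.0528 to 1.46). Of the 3 barcodes of day 0, 1 had the type 17 core, Cd163l1 and Trdv4, and the other 2 the type 1 core. The days differed less in type 17 share after the thinning described above. The type 17 core alone was then left in 16 of 46 barcodes at day 7 (34.8%) and 7 of 15 at day 14 (46.7%). The type 1 core alone was left in 19 and 3 of them (41.3% and 20%), and 10 and 5 held neither core.

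Summed levels of type 1 genes were mostly below their day 7 level at day 14. With only 15 barcodes at day 14, genes were counted here as above or below by any amount, which gave 53.8% above and 46.2% below of all 5624 genes compared. Of 18 type 1 genes, 16 were below, with a median log2 ratio of day 14 to day 7 of -1.04, against 0.07 over all genes. NK genes were below it too, all 7 compared, with a median of -2.03, and the 12 NK genes summed to 913 CPM at day 7 and 81.0 CPM at day 14. Of the 295 NK gene UMIs at day 7, 133 came from the 1 barcode that held most Gzma, without which the sum was 508 CPM. Barcodes with Ncr1 or Klrb1c were 11 of 46 and 1 of 15, and barcodes above 5% mitochondrial UMIs 27 of 46 and 3 of 15, and the part of either in these differences was not tested. Over the same days the type 1 list had medians of -0.0012, -0.54 and -0.27 in CD4 T, CD8 T and NK barcodes. The NK list had medians of 2.96 (3 genes compared), 0.44 (5 genes) and -0.91 (12 genes) in these populations. Ccl5 at day 14 was 0.256 times its day 7 level (0.188 to 0.342), Nkg7, a granule protein gene, 0.421 times and Klrd1 0.263 times. Type 1 barcodes alone were 20 at day 7 and 3 at day 14. Their ratios were 0.896 for Ccl5 (0.658 to 1.20), 0.924 for Klrd1 (0.412 to 1.82) and 1.53 for Nkg7 (0.880 to 2.51). These 3 are core genes by which the barcodes were chosen, so their levels there are partly set by that choice. In the same barcodes Ly6c2 and Xcl1 were 2.42 (1.55 to 3.65) and 2.05 times (1.24 to 3.25) their day 7 level. At day 14, 1 barcode held 27 of 50 UMIs of Ccl5, and another 18 of 22 of Xcl1. Both ratios thus rest largely on single barcodes. Tbx21 had 28 UMIs at day 7 and none at day 14. Satb1, a chromatin organiser of T cells, was 0.0935 times its day 7 level (0.0111 to 0.351), with 2 UMIs at day 14. Gzma, Ccl3 and Ccl4 had the lowest ratios, but with the 1 barcode described above.

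The type 17 list had no such shift. Of 19 genes compared, 11 were above and 8 below their day 7 level, with a median log2 ratio of 0.29. Trdv4 was 1.49 times its day 7 level (1.03 to 2.13), Il7r 1.32 times (1.09 to 1.60) and Ltb4r1 2.14 times (1.37 to 3.32), whereas Blk (0.999), Maf (0.947) and Cxcr6 (1.12) were close to level over all barcodes. Among type 17 barcodes alone, 22 at day 7 and 12 at day 14, these 3 genes were lower at day 14. Cxcr6 was at 1848 and 1315 CPM, a ratio of 0.712 (0.566 to 0.890), Blk, a core gene, at 576 and 341 CPM, 0.592 (0.374 to 0.911), and Maf at 971 and 646 CPM, 0.665 (0.479 to 0.914). Tmem176a and Tmem176b were higher there at day 14, with ratios of 1.30 (1.02 to 1.64) and 1.46 (1.14 to 1.88). The ratio was 0.916 for Trdv4 (0.630 to 1.32) and 1.01 for Il7r (0.823 to 1.24), with intervals that included 1. Of the 12 type 17 barcodes of day 14, the deepest held 24833 UMIs, against a median of 5989, but only 3 of the 29 Blk UMIs. Its weight in the ratios of day 14 to day 7 was not tested for these genes. Il17a over all barcodes was at 542 CPM at day 7 and 40.5 CPM at day 14, a ratio of 0.0748 (0.0202 to 0.195). Its share of positive barcodes differed less, 21.7% and 13.3%, or 15.2% and 6.67% after thinning, so that the lower level lay mainly in fewer UMIs per positive barcode, of which day 14 had 2. Ramp1 at day 14 was 2.60 times its day 7 level (1.90 to 3.54).

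**Figure D5:**
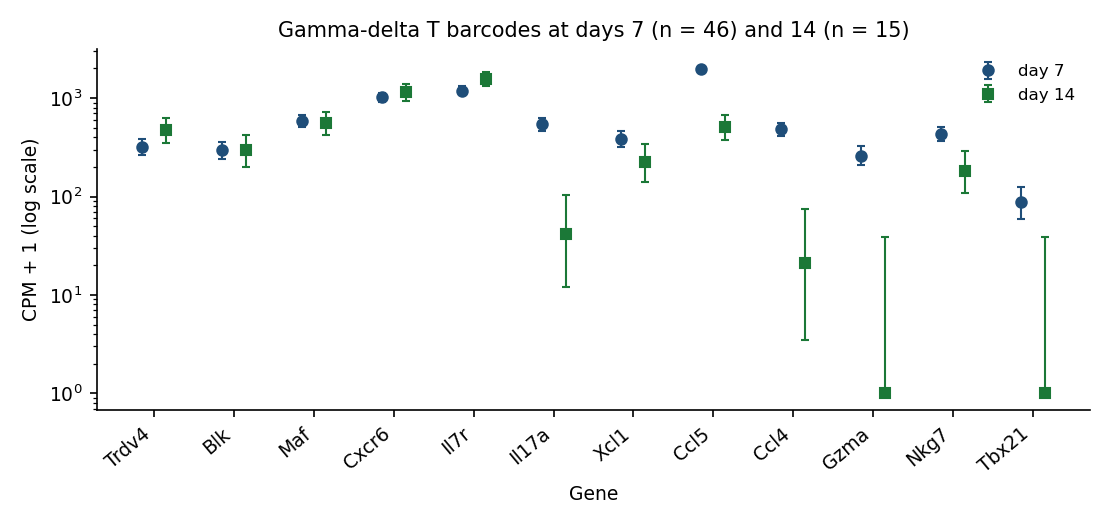
Level of each gene in gamma-delta T barcodes at day 7 (46 barcodes) and day 14 (15 barcodes), as CPM + 1 on a log scale, with exact 95% Poisson intervals. Blk, Maf and Cxcr6 lie close together on both days and Trdv4 and Il7r somewhat higher at day 14, whereas Il17a (542 and 40.5 CPM), Ccl5 (1974 and 506 CPM) and Ccl4 lie lower at day 14.

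Immediate early and heat shock genes were higher at day 14. Of 12 genes, 11 were above their day 7 level, with a median log2 ratio of 1.08, and the list summed to 2568, 6037 and 12356 CPM at days 3, 7 and 14. The same list had medians of 1.46, 0.72 and 0.88 in CD4 T, CD8 T and NK barcodes over these days, so it was higher at day 14 in all 4 populations. Its part in the other differences between days was not tested.

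Cell cycle genes were found in few gamma-delta T barcodes. After thinning to 1000 UMIs, 1 of 4, 3 of 46 (6.52%, 1.37 to 17.9) and 1 of 15 (6.67%) barcodes of days 3, 7 and 14 held at least 2 UMIs of 20 cell cycle genes, close to the 7.06%, 8.57% and 4.59% of CD4 T, CD8 T and NK barcodes at day 7. The share in neutrophils, which do not divide, was 1.31% at day 3 (2 of 153, median 3127 UMIs) and 0 of 55 at day 7. Without thinning the gamma-delta shares of days 7 and 14 were 45.7% and 26.7%. Most cell cycle UMIs came from 1 barcode on each day, 215 of 295 at day 7 and 186 of 195 at day 14, and that barcode of day 14 held 61 of 62 UMIs of Hist1h2ae, all 16 of Ube2c and 32 of 33 of Cxcl10, which were among the 10 highest ratios of day 14 to day 7.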

How the data were processed

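The files hold whole-number UMI counts, not normalized, that the authors obtained per barcode with Cell Ranger (version 3.0.2 in the file headers, another version in the methods) from 10x 3′ libraries. The methods name the reference of these mouse libraries as GRCh38, which is not a mouse build. As the mouse build and annotation are therefore not known, no coordinates are printed for counted genes. The 31053 listed genes and all barcodes were used as deposited. The members and gene lists were chosen with earlier results of these data known. In the type 17 list and core, and in the list of naive cells, 1 gene each was left out and is not reported here. UMIs were summed per library and population and scaled to CPM. Shares have exact Clopper-Pearson, levels exact Poisson and ratios exact conditional intervals at 95%, and a gene at 0 is set against a floor of 3 UMIs. Genes with at least 10 UMIs over both populations were compared. A gene counted as higher or lower at 2-fold with 20 CPM added. With 1 library per time point no test across samples was possible. The calls were tested on simulated data.

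Named genes are those of the lists, the 10 highest and 10 lowest ratios to each population at day 7, and the 10 highest and lowest ratios of day 14 to day 7. Barcodes that hold most UMIs of a gene were chosen after their values were seen. NK barcodes had Ncr1, no CD3 and neither Csf1r nor Cd68. Macrophage barcodes had at least 2 UMIs of Csf1r and Cd68, neutrophil barcodes at least 20 of S100a8 and S100a9, and wall barcodes at least 10 of Col1a1, Col1a2 and Acta2 without Ptprc. Doublet scores came from Scrublet (scanpy 1.11.5), whose automatic limit called 12, 1, 2 and 2 barcodes at days 0, 3, 7 and 14. As these were too few to rely on at the injured days, the highest 0.8% per 1000 barcodes of each library (1, 23, 72 and 10 barcodes) were removed as an alternative and none in the values reported. Python 3.11.15, numpy 2.4.6, scipy 1.17.1 and matplotlib 3.10.9 were used. Sequences come from GENCODE transcripts and from RefSeq promoters of GRCm38.p6, matched by identifier or symbol. Alternatives covered quality limits, the CD3 and marker minimums, further exclusions, thinning, the CPM added and leaving out single barcodes or libraries.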

Additional observations from a re-analysis of the deposited data

How the results depend on the processing

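Of 368 alternatives of the summary results, 306 kept their sign and stayed within a set limit of the values reported. The limit was the counting error for shares and for the Il17a ratio, and 1.5 times for counts of genes. For list medians it was the counting error of the gene nearest the median. For means over the 3 libraries it was their standard deviation. Leaving out 1 library cannot exceed that limit, so only a change of sign could show there. No paired analysis was possible because each time point is 1 library. A limit of 5% mitochondrial UMIs kept 33 of the 65 barcodes, excluding Trac 47, excluding Ncr1 and Klrb1c 52 and the rule applied after thinning 46. The share at day 7, 2.28%, was then 1.28% at 5% mitochondrial UMIs, 1.64% without Trac and 1.59% after thinning. With 4 and 15 barcodes, days 3 and 14 gave wide intervals, and limit what can be said of low genes. Causes were not tested.

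Counts of higher and lower genes moved with the CPM added, as that sets the call. With 5 CPM they were 540 and 611 against CD4 T, 1056 and 606 against CD8 T and 583 and 885 against NK. With 50 CPM they were 79 and 54, 118 and 67, and 88 and 92. With 5% mitochondrial UMIs they were 332 and 370, 778 and 550, and 365 and 423. After thinning of the rule, 416 were higher and 371 lower than CD4 T, 725 higher than CD8 T and 357 lower than NK. The mean of per-barcode CPM gave 311 higher than CD4 T. At least 30 UMIs gave 252 and 161 for CD8 T, and without the top barcode of each gene 131 were lower than CD8 T.

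The type 17 median against CD4 T was 2.14 at 5% mitochondrial UMIs, 2.05 without Ncr1 and Klrb1c, 2.00 with 5 CPM and 1.09 with 50 CPM. Against CD8 T it was 3.29 at 5% mitochondrial UMIs and 3.99 with 5 CPM, and against NK 3.63 and 1.42 with 5 and 50 CPM. The type 1 median against CD4 T reversed to -0.059 without Ncr1 and Klrb1c and to -0.094 after thinning. It was 0.34 at 5% mitochondrial UMIs, 1.29 with CD3 from 1 UMI, 0.28 with CD3 from 3 UMIs, 0.30 with 2 marker UMIs, 1.06 and 0.63 with 5 and 50 CPM and 0.40 without the top barcode of each gene. The mean over the 3 libraries, 0.13, was -0.23 without day 7. Against CD8 T and NK the median was -1.23 and -1.84 with CD3 from 3 UMIs, -1.20 and -1.81 with 2 marker UMIs, -2.03 and -2.37 without Ncr1 and Klrb1c, -1.72 and -2.22 after thinning, and -2.02 against NK without the top barcode of each gene.

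The Il17a log2 ratio of day 14 to day 7, -3.21, was -4.66 after thinning of the rule. The Ccl5 share, 43.5%, was 25.7% without Ncr1 and Klrb1c and 28.1% after thinning of the rule, and the cycling share at day 7 was 45.7% without thinning. The cycling share at day 14 was 0 without Trac and, in an alternative chosen after seeing the data, 0 without the deepest barcode.

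Of single genes against CD4 T, Maf reversed to a log2 ratio of -0.31 after thinning, Ccl5 to -0.20 at 5% mitochondrial UMIs, -0.079 without Ncr1 and Klrb1c and -0.65 after thinning, and Nkg7 to -0.12, -1.37 and -0.042 without Ncr1 and Klrb1c, after thinning and as mean per-barcode CPM. Gzma reversed to -0.46 with CD3 from 3 UMIs, -0.63 with 2 marker UMIs, -0.35 without Ncr1 and Klrb1c and -2.06 after thinning, and against CD8 T to 0.11 at 5% mitochondrial UMIs. Pdcd1 reversed to -0.11 at 200 genes and 20% mitochondrial UMIs, -0.10 without Trac and -0.083 after thinning. Against NK, Trac reversed to -0.80 without Trac, by construction, and Cd28 to -0.059 at 200 genes, -0.22 without Ncr1 and Klrb1c, -0.34 as mean CPM, -0.30 without its top barcode and -0.41 without the deepest barcodes, the last chosen after seeing the data.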

Other observations

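Type 2 lymphocyte genes were lower in gamma-delta T barcodes of day 7 than in CD4 T barcodes for 2 of 5 compared genes and higher for none. Gata3, the factor of type 2 cells, was found in 15 of 46 barcodes at 65.0 CPM, 2.39-fold below CD4 T (1.47 to 4.05), and in 6 of 15 barcodes at day 14 at 182 CPM. Of 20 cell cycle genes compared with CD4 T barcodes at day 7, 10 were lower and none higher, but 1 CD4 T barcode held 46.3% of the UMIs of the list. At day 14 the median log2 ratio of the list to CD4 T barcodes was 1.64, with 95.4% of the gamma-delta UMIs in 1 barcode. Of 7 genes of naive and recirculating cells, none was higher than in CD4 T barcodes and Klf2 and Dapl1 were lower. At day 14, 5 of 6 compared genes of this list were below and 1 above their day 7 level, by any amount. Of all compared genes, 46.2% were below. In CD4 T, CD8 T and NK barcodes, 4 of 7, 6 of 7 and 5 of 5 compared genes of the list were below over the same days.

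The genes Ckb and Actn2 were among the 10 highest ratios to CD8 T and to NK barcodes, respectively. Ckb, the brain-type creatine kinase gene, was at 254 CPM at day 7, 6.54, 24.6 and 9.48 times CD4 T, CD8 T and NK. Actn2, encoding alpha-actinin-2, was at 139 CPM, 5.26 and 40.5 times CD4 T and CD8 T and at least 34.7-fold above NK. At day 14 Ckb and Actn2 were 2.55 and 1.82 times their day 7 levels. Furin, encoding a protease that matures TGF-beta, was at 142 CPM at day 7 and 314 CPM at day 14, a ratio of 2.21 (1.35 to 3.55).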
